A study of Mus musculus with 6 samples.

Results

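Cells live or die by a balance within the Bcl-2 family, and the 10 members of that family described here were followed across 6 RNA-seq libraries of mouse macrophages. They are 6 survival genes (Bcl2a1a, Bcl2a1b, Bcl2a1d, Bcl2, Bcl2l1 and Mcl1), 3 BH3-only death genes (Bmf, Bcl2l11 and Pmaip1) and the effector Bax. They were chosen by name, through the Ensembl gene IDs that the count table carries, and are 10 of the 54446 genes in that table.

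The survival proteins hold the effectors in check at the outer membrane of the mitochondrion. The BH3-only proteins are made or switched on under stress or when survival signals are lost, and they bind the survival proteins or the effectors. Free effectors such as Bax open the membrane, cytochrome c escapes and caspases are switched on. Macrophages are known to lean on Mcl1 and, once activated by microbial products, on the NF-kappaB target Bcl2a1.

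The cells were bone marrow-derived macrophages (BMDMs) grown from the marrow of male BALB/c mice aged 6 to 8 weeks. M0 cells were left unpolarized, M1 cells received IFN-γ at 20 ng/mL with LPS at 50 ng/mL, and M2 cells received IL4 at 20 ng/mL, both for 24 hours. Each state had a control library, from cells given DMSO, and a library from cells given regorafenib, a multikinase inhibitor, at 1 µM starting 1 hour before polarization. For the M0 cells, which were not polarized, the length of culture and of drug exposure is not given. How many mice gave the marrow, and whether it was pooled, is not given in the sources used here.

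There was 1 library per condition, so no difference between a pair of libraries has a replicate check. The 95% intervals in brackets cover counting error only, and without molecular identifiers reads are not independent molecules. In bulk RNA, fewer cells making a transcript and less transcript per cell cannot be told apart. Libraries held 25359309 to 34898342 counts. The 6 macrophage markers summed to 29790 CPM (counts relative to the scaled library size) in M0 control and 48190 in M0 regorafenib, 27400 and 29680 in M1, with 21580 and 33330 in M2. Most of that sum was Lyz2, at 25970 and 42740 CPM in M0 and 16710 and 27450 in M2, control first. Adgre1, Csf1r and Mertk were also higher with regorafenib in M0 and M2. Itgam was lower (173 and 126 CPM in M0, 217 and 130 in M2), and Cd68 was nearly level (1294 and 1282, 1606 and 1525). All 5 lymphocyte and all 3 mast cell markers had 3 counts or fewer in every library. Of 7 neutrophil markers, 3 (Ly6g, Retnlg and Ngp) were at that floor everywhere, and the summed level of the list was 84.8 CPM in M0 control and 158 in M0 regorafenib, 157 and 110 in M1, with 88.8 and 132 in M2. Most of it was Mpo, at 80.7 and 155 CPM in M0 and 87.0 and 130 CPM in M2, control first. S100a8 was at 4.004 and 2.76 CPM in M0, 69.8 and 20.3 in M1, with 1.86 and 1.39 in M2. The 4 dendritic cell markers summed to 30.7 and 34.8 CPM in the M1 libraries, nearly all of it Ccr7 (780 and 827 counts). In the others they summed to at most 2.502 CPM, reached in M2 regorafenib. Most of that was Zbtb46, at 2.109 CPM there against 0.411 in M2 control. The 4 fibroblast markers summed to 3.06 CPM in M0 control and 9.92 in M0 regorafenib (Col1a2 46 and 188 counts), 4.99 and 5.06 in M1, with 3.48 and 5.61 in M2. The macrophage sum, mostly Lyz2, was thus higher with regorafenib in M0 and M2, as were the fibroblast sum and Mpo. In those states Bmf was higher and Bcl2 and Bcl2l1 lower, while S100a8 was lower in M0 and M1. The part of these other cell types in the results was not tested. The M1 labels matched their state gene Nos2, which had 410649 and 221627 counts in M1 against 39 to 50 elsewhere. The 4 M2 state genes summed to 1297 CPM in M2 control and 641 in M2 regorafenib, and to at most 33.8 elsewhere. With regorafenib in M2, Arg1 (597 and 36.4 CPM) and Mrc1 (664 and 461) were lower, while Retnla (25.8 and 120) and Chil3 (10.4 and 24.1) were higher.

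The 3 Bcl2a1 genes need their sequences beside their counts, because they are near copies. They lie on chromosome 9 of GRCm38: Bcl2a1d (ENSMUSG00000099974.1) at 88723285 to 88731914 on the minus strand, Bcl2a1a (ENSMUSG00000102037.1) at 88956900 to 88962419 on the plus strand and Bcl2a1b (ENSMUSG00000089929.1) at 89199209 to 89207827 on the plus strand. Each has a coding sequence of 516 bases. Bcl2a1a and Bcl2a1b differed at 11 of them (97.9% identity), Bcl2a1a and Bcl2a1d at 7 (98.6%) and Bcl2a1b and Bcl2a1d at 6 (98.8%). Of the 12 coding positions that vary among the copies, 7 fall in the first 100 coding bases, shown here 5′ to 3′ with those 7 in capitals. Reads over positions that differ, there or elsewhere in the transcript, are what lets a mapper tell the copies apart.
Bcl2a1a: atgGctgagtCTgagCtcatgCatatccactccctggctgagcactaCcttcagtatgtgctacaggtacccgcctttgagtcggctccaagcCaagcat
Bcl2a1b: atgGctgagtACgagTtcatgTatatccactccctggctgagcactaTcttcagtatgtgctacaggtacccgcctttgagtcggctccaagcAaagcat
Bcl2a1d: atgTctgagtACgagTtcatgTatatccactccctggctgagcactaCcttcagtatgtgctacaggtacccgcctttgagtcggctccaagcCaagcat
The longest run that all 3 copies share, from coding base 95 to 311, is 217 bases. Across whole transcripts, 43.5% of the 100-base words of Bcl2a1a, 56.8% of those of Bcl2a1b and 54.7% of those of Bcl2a1d also occur in another gene. STAR counts only read pairs that map to 1 place and overlap 1 gene, and a pair can map to 1 place through either mate. Where on each copy the counted reads lay was not tested. Within the shared part of Bcl2a1b, 401 of its 817 exon bases (49.1%) also belong to the annotated gene Gm29094 on the same strand, which had 0 counts in every library. A pair that overlaps both genes is counted for neither, so Bcl2a1b can be undercounted, and by how much was not measured. The reference is C57BL/6J and the cells were BALB/c, so how well strain differences keep the copies apart was not tested.

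Among the other members, 12.2% of the exon bases of Bax overlap Gm45808 on the same strand and 6.09% of those of Bcl2 overlap D630008O14Rik on the other strand, and both neighbours had 0 counts in every library. Pairs that overlap both Bax and Gm45808 are likewise counted for neither. Bax shares 5.33% of its words with another gene and Bcl2, Bcl2l1, Mcl1, Bmf, Bcl2l11 and Pmaip1 share none.

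Bcl2a1 (A1), a short-lived survival protein of haematopoietic cells, was the member with the widest range. Summed over the copies, its counts were 67 in M0 control and 73 in M0 regorafenib, 2082 in M1 control and 7126 in M1 regorafenib, and 148 in M2 control and 205 in M2 regorafenib. Both M1 libraries stood far above the other 4, and the M1 regorafenib library stood above M1 control. With counts scaled by TMM (edgeR's trimmed mean of M-values), M1 was above M0 by 5.21 on the log2 scale in the control libraries (4.86 to 5.58, 36.9-fold) and by 7.06 in the regorafenib libraries (6.73 to 7.41, 133-fold). Within M1, regorafenib was above control by 1.88 on the log2 scale (1.81 to 1.95, 3.67-fold). In M0 the log2 ratio was 0.02 (-0.48 to 0.52), and in M2 it was 0.85 (0.54 to 1.17), short of 2-fold.

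The copies did not make up the same mix in each state. Bcl2a1a had 3 and 2 counts in M0, 1005 and 2729 in M1, with 0 and 2 in M2, control first. Bcl2a1d had 60 and 63 in M0, 921 and 3951 in M1, with 135 and 178 in M2. Bcl2a1b had 4 and 8 in M0, 156 and 446 in M1, with 13 and 25 in M2. So Bcl2a1d carried most of the few copy counts in M0 and M2, and Bcl2a1a was counted almost only in M1. Pairs lost where genes overlap or copies share sequence are not in the shares that follow, and their number was not measured. Bcl2a1a held 48.3% of the copies' counts in M1 control (exact binomial interval 46.1 to 50.4) and 38.3% in M1 regorafenib (37.2 to 39.4). Its share was 4.48% in M0 control (0.933 to 12.5), 2.74% in M0 regorafenib (0.334 to 9.55) and 0.976% in M2 regorafenib (0.118 to 3.48). M2 control had 0 of 148 counts, a share of 0% (exact binomial interval 0 to 2.46). Bcl2a1d held 44.2% in M1 control and 55.4% in M1 regorafenib, against 86.3% to 91.2% in the other 4 libraries.

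All 3 copies were past 2-fold in M1 with regorafenib, by 2.20 on the log2 scale for Bcl2a1d (2.10 to 2.31), 1.62 for Bcl2a1b (1.35 to 1.89) and 1.54 for Bcl2a1a (1.44 to 1.65). As the copies share sequence, they are not 3 independent observations. Between M1 and M0 control, the ratio of Bcl2a1a rests on 3 counts in M0 and was 398-fold, with an interval of 7.09 to 10.92 on the log2 scale. Bcl2a1b and Bcl2a1d were above M0 by 5.54 (4.15 to 7.43) and 4.19 (3.81 to 4.59). With regorafenib in both libraries, Bcl2a1b and Bcl2a1d were above M0 by 6.25 (5.26 to 7.47) and 6.42 (6.06 to 6.80). These ratios lean on the low M0 counts: with 1 CPM added to both values, Bcl2a1a, Bcl2a1b and Bcl2a1d were above M0 by 5.18, 2.64 and 3.63 in the control libraries. Bcl2a1b and Bcl2a1d were then above M0 by 3.97 and 5.82 in the regorafenib libraries. In M2 the call of Bcl2a1b with regorafenib (1.33, 0.31 to 2.42) rested on 13 and 25 counts and was 0.48 once 1 CPM was added to both values.

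**Figure D1:**
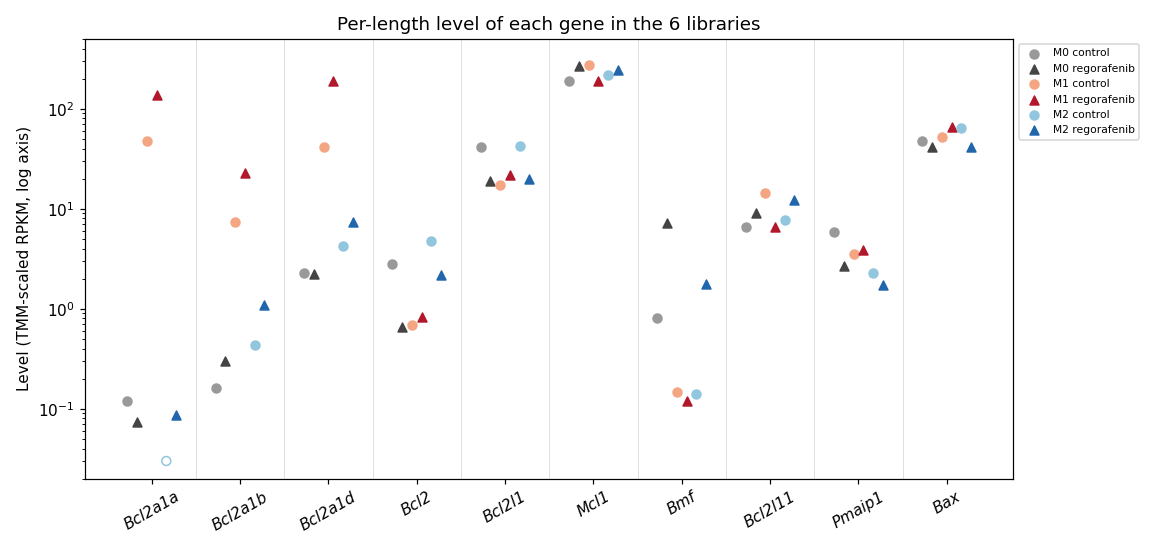
Level of each of the 10 genes in each library, in RPKM (TMM-scaled CPM per kilobase of exon) on a log axis; circles are control and triangles regorafenib libraries, and the open circle at the foot marks Bcl2a1a at 0 counts in M2 control. Mcl1 lay between 188 and 274 RPKM in every library, whereas Bcl2a1d ran from 2.22 to 190.

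The promoters of the copies were compared with the same care. In the RefSeq windows of GRCm38.p6, from 250 bases before to 50 after the start, those of Bcl2a1a and Bcl2a1b differed at 2 of the 256 bases that align. Bcl2a1a and Bcl2a1d had 6 differing and 6 gapped bases over 294 aligned bases (96% identity). All 3 windows hold TGAATCA, which matches TGANTCA, the string searched for AP-1, only because its middle base was left free. Stretches of 100 bases around that match are shown 5′ to 3′ on the gene's own strand, with the match in capitals. They are shown because these copies were the members that were high together in M1. Bcl2a1a is chr9:88956760-88956859 (plus strand), Bcl2a1b chr9:89199069-89199168 (plus) and Bcl2a1d chr9:88731905-88732004 (minus).
Bcl2a1a: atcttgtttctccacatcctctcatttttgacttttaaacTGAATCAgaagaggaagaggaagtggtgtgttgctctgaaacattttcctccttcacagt
Bcl2a1b: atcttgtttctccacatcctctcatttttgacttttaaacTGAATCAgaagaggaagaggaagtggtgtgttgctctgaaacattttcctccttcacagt
Bcl2a1d: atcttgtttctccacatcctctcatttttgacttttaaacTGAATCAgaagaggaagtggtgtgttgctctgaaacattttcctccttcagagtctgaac
The match begins 120, 164 and 114 bases before the annotated starts of Bcl2a1a, Bcl2a1b and Bcl2a1d. TGANTCA, with N any base, was searched on both strands, and 7.81% of the 32851 mouse promoter windows hold it. The NF-kappaB consensus, the CRE motif TGACGTCA and the GAS motif TTCNNNGAA (matches in 4.51%, 1.79% and 8.3% of all windows) were not found in these 3 windows, nor was the FOXO motif GTAAACA (3.65%). A match is a string of letters and not a shown binding site.

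Mcl1, a labile survival protein that macrophages need, was the steadiest of the survival genes. It lies on chromosome 3 (95658788 to 95663176, plus strand) and had 19716 and 29975 counts in M0, 24220 and 15536 in M1, with 27082 and 23574 in M2, control first. Scaled by TMM, the M1 control and M0 regorafenib libraries were the highest (937 and 909 CPM) and M0 control and M1 regorafenib the lowest (642 and 645 CPM). With total counts, M0 and M2 regorafenib both stood above M1 control. The log2 ratio of M1 to M0 control was 0.55 by TMM and 0.11 with total counts. Regorafenib was above control by 0.50 in M0 (0.48 to 0.53) and by 0.18 in M2 (0.16 to 0.21), and the log2 ratio in M1 was -0.54 (-0.57 to -0.51). No pair of libraries that was compared was 2-fold apart for Mcl1.

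Bcl2l1, which encodes Bcl-xL, lies on chromosome 2 (152780668 to 152831728, minus strand). Its counts were 5783 in M0 control and 2853 with regorafenib, 2027 and 2406 in M1, with 7182 and 2571 in M2. M0 control and M2 control were the high libraries (188 and 197 CPM), and the other 4 lay between 78.5 and 99.8 CPM. With regorafenib the log2 ratio was -1.12 in M0 (-1.19 to -1.06) and -1.10 in M2 (-1.16 to -1.03), both past 2-fold, and 0.35 in M1 (0.26 to 0.43). Against M0, M1 control was lower, with a log2 ratio of -1.26 (-1.34 to -1.19). With regorafenib in both, the ratio of M1 to M0 was 0.21 (0.13 to 0.28), and it turned to -0.21 when libraries were scaled by total counts.

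Bcl2, the founding survival gene of the family, lies on chromosome 1 (106538178 to 106714274, minus strand) and was also highest in M2 control. It had 791 and 196 counts in M0, 162 and 184 in M1, with 1601 and 552 in M2, control first. M2 control was the highest library at 43.9 CPM, M0 control and M2 regorafenib came next at 25.8 and 19.7 CPM, and M0 regorafenib and both M1 libraries lay between 5.95 and 7.64 CPM. Regorafenib gave a log2 ratio of -2.12 in M0 (-2.35 to -1.89, 4.33-fold lower) and -1.15 in M2 (-1.29 to -1.01). In M1 the ratio was 0.28 with an interval of -0.03 to 0.60, so the M1 libraries could not be told apart at this depth. M1 control was below M0 control by 4.11-fold, a log2 ratio of -2.04 (-2.29 to -1.79). With regorafenib in both, the ratio of M1 to M0 was 0.36 (0.06 to 0.66), and it turned to -0.05 when scaled by total counts. M2 was above M0 by 0.77 in the control libraries (0.64 to 0.89) and by 1.73 in the regorafenib libraries (1.49 to 1.97).

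Per length, the 6 survival genes could be set against each other within a library. Mcl1 held 80.2% of their summed RPKM in M0 control, 92.3% in M0 regorafenib, 70.6% in M1 control, 80.6% in M2 control and 88.9% in M2 regorafenib. In M1 regorafenib it held 33.6%, and the Bcl2a1 copies together held 62.4%. The copies held 24.8% in M1 control and between 0.897% and 3.09% in the M0 and M2 libraries. Only in M1 regorafenib, of the 6 libraries, was the share of the copies above that of Mcl1. Bcl2l1 held 17.5% and 15.9% in the M0 and M2 controls and 3.87% to 7.23% in the other libraries, and Bcl2 held 1.78% at most. The shares of the copies use their whole exon length, and the length over which their reads could be counted was not measured. With the number of unshared words in place of exon length, which takes no account of mates, the copies held 42.8% in M1 control and 79.4% in M1 regorafenib.

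**Figure D2:**
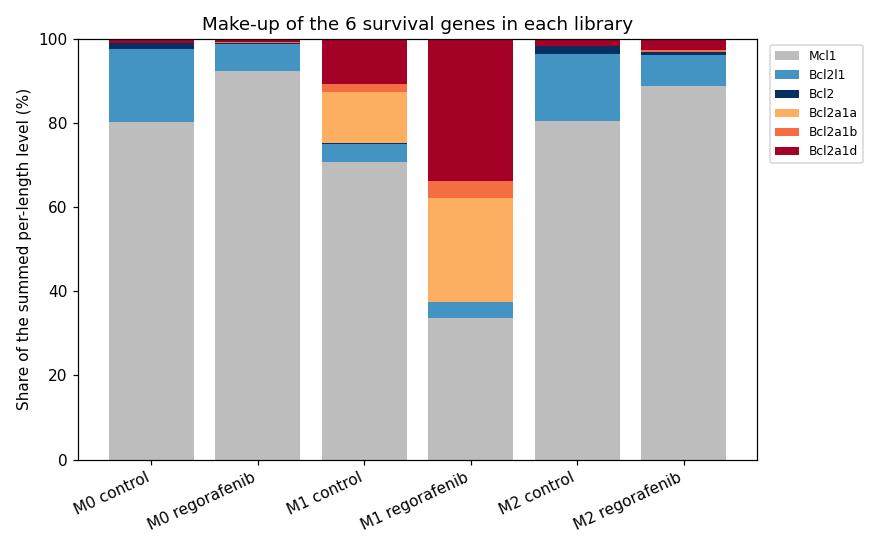
Share (%) of the summed per-length level of the 6 survival genes held by each gene, 1 stacked bar per library. The Bcl2a1 copies take 24.8% of the bar in M1 control and 62.4% in M1 regorafenib, and at most 3.09% in the other 4 libraries.

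Among the BH3-only genes, Bmf gave the largest regorafenib ratios of the members. Bmf encodes a protein that is held at the cytoskeleton and released by stress, and lies on chromosome 2 (118528757 to 118549687, minus strand). Its counts were 129 in M0 control and 1249 in M0 regorafenib, 20 and 15 in M1, with 27 and 260 in M2. Scaled, M0 regorafenib stood highest, followed by M2 regorafenib and then M0 control (37.9, 9.29 and 4.20 CPM), and M2 control and both M1 libraries had 27 counts or fewer. Regorafenib was above control by 3.17 on the log2 scale in M0 (2.91 to 3.45, 9.02-fold) and by 3.65 in M2 (3.08 to 4.28, 12.6-fold). In M1 the ratio was -0.31 with an interval of -1.39 to 0.72, and no difference was detectable at 20 and 15 counts. The log2 ratio of M1 to M0 was -2.44 in the control libraries (-3.20 to -1.75) and -5.93 in the regorafenib libraries (-6.77 to -5.20). That of M2 to M0 was -2.51 (-3.16 to -1.90) and -2.03 (-2.23 to -1.83). With 1 CPM added, the regorafenib ratio in M2 was 2.57, the ratios of M1 to M0 were -1.55 and -4.58, and that of M2 to M0 control was -1.58, all still past 2-fold. With a level of 7.21 RPKM in M0 regorafenib, Bmf was close to Bcl2l11 there (9.17 RPKM), whereas in M1 control it was at 0.147 against 14.4 RPKM.

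Bcl2l11 encodes Bim, the BH3-only protein best known for killing haematopoietic cells deprived of growth factors. It lies on chromosome 2 (128126038 to 128162547, plus strand) and had 1623 and 2426 counts in M0, 2991 and 1261 in M1, with 2278 and 2770 in M2, control first. Scaled by TMM, M1 control was the highest library at 116 CPM and M1 regorafenib, with M0 control, the lowest (52.3 and 52.8 CPM). With total counts, M2 regorafenib stood above M1 control. Regorafenib gave a log2 ratio of -1.15 in M1 (-1.24 to -1.05, 2.21-fold lower), but was above control by 0.48 in M0 (0.39 to 0.57) and by 0.67 in M2 (0.59 to 0.75). M1 was above M0 by 1.13 in the control libraries (1.04 to 1.22), and by 0.69 when scaled by total counts, which is short of 2-fold. In the regorafenib libraries the ratio of M1 to M0 was -0.49 (-0.59 to -0.39).

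The Bcl2l11 promoter held a FOXO motif, GTAAACA, 227 bases before the start, in capitals in the stretch at chr2:128125788-128125887 (GRCm38.p6, RefSeq, plus strand), shown because FOXO factors are known to act on this gene.
Bcl2l11: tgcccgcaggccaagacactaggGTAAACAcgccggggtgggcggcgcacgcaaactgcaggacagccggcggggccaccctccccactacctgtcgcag
It was the only FOXO match among the 14 windows of the 9 members searched. Of the FOXO genes themselves, Foxo3 was above control with regorafenib by 0.83 in M0 and 0.32 in M2, with a ratio of -0.13 in M1, and Foxo1 by 0.81 in M0 and 0.60 in M2 (0.00 in M1). None of these was past 2-fold. The NF-kappaB consensus was found in 1 window of Bcl2l1 and 1 of Bmf.

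Pmaip1 (Noxa), a p53 target whose protein binds Mcl1 and A1, was highest in M0 control. It lies on chromosome 18 (66458533 to 66465565, plus strand). There were 487 and 242 counts in M0, 250 and 253 in M1, with 226 and 132 in M2, control first, so that the other 5 libraries had 253 counts or fewer. Regorafenib gave a log2 ratio of -1.11 in M0 (-1.34 to -0.89), past 2-fold, and of -0.39 in M2 (-0.71 to -0.08). The M1 ratio was 0.12 (-0.14 to 0.38). M2 control was below M0 control by 2.56-fold (-1.36, -1.59 to -1.13), and M1 control was at -0.71 (-0.94 to -0.49), or -1.15 when scaled by total counts, which is past 2-fold.

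Bax, the effector that forms the pore, lies on chromosome 7 (45461697 to 45466898, minus strand) and varied least of the death genes. It had 2324 and 2170 counts in M0, 2113 and 2495 in M1, with 3688 and 1814 in M2, and its level ran from 64.9 to 104 CPM. Regorafenib gave ratios of -0.20 in M0 (-0.29 to -0.12), 0.34 in M1 (0.26 to 0.42) and -0.64 in M2 (-0.72 to -0.56). No comparison put Bax past 2-fold, and its ratio of M1 to M0 control, 0.11, was -0.33 when scaled by total counts.

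**Figure D3:**
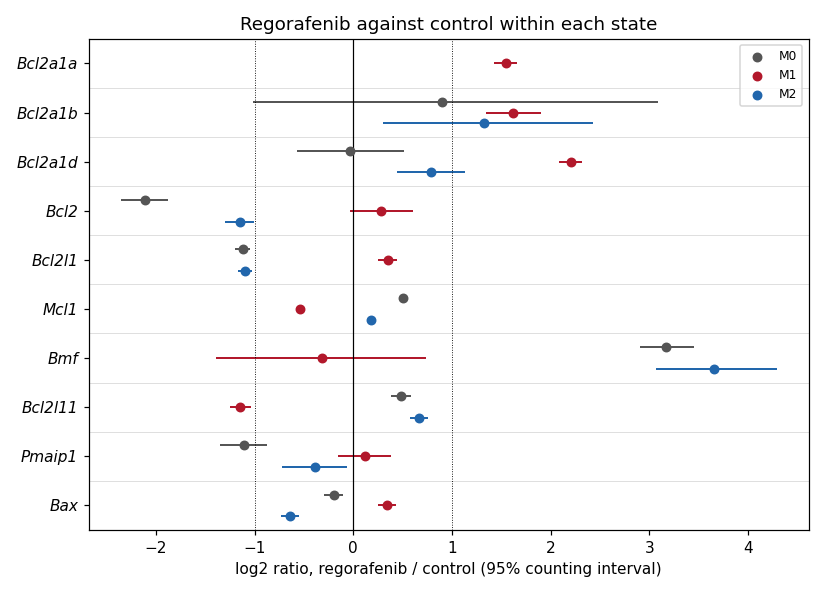
Log2 ratio of regorafenib to control for each gene in M0, M1 and M2, with 95% counting intervals; dotted lines mark 2-fold, and Bcl2a1a is drawn in M1 alone because both libraries had 3 counts or fewer in M0 and in M2. Bmf lies at 3.17 and 3.65 in M0 and M2, Bcl2 and Bcl2l1 lie below -1 in both, and in M1 the Bcl2a1 copies lie above 1 and Bcl2l11 below -1.

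Counted over the family, a gene was called when it was at least 2-fold apart and the higher library had 10 counts or more. In M0 with regorafenib, 4 of the 8 members with enough counts were called, against 20.4% of the 13964 genes compared, 1 higher (Bmf, background 9.47%) and 3 lower (Bcl2, Bcl2l1 and Pmaip1, background 10.9%). Their median log2 ratio was -0.12, and that of all genes 0.00. In M1, 4 of 10 were called against 5.22% of 13440 genes, the 3 Bcl2a1 copies higher (1.76%) and Bcl2l11 lower (3.46%), with a median of 0.31 against -0.02. With the copies summed, M1 had 2 calls. In M2, 4 of 9 were called against 11.2% of 13813 genes, Bmf and Bcl2a1b higher (6.15%) and Bcl2 and Bcl2l1 lower (5.07%), with a median of 0.18 against -0.03. Thus Bmf higher with Bcl2 and Bcl2l1 lower was seen in M0 and in M2, and none of these 3 was past 2-fold in M1. The genes were chosen by name with earlier results of these data known, so the shares are a description.

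Between states, 7 of 10 members were called for M1 against M0 control, where 37.1% of 14168 genes were called. The 4 higher were the Bcl2a1 copies and Bcl2l11 (background 17.4%), and the 3 lower were Bcl2, Bcl2l1 and Bmf (19.7%). With the copies summed there were 5 calls. In the regorafenib libraries 4 of 10 were called against 37.9% of 14159 genes, the copies higher (16.3%) and Bmf lower (21.6%), or 2 with the copies summed. The medians of the members were 0.33 and 0.44, beside -0.05 and -0.09 over all genes. Scaling by total counts moved the median of all genes between M1 and M0 to -0.49 in the control and -0.51 in the regorafenib libraries, and the share of calls that were higher from 46.8% to 30.3% and from 43.1% to 27.7%. M2 against M0 control had 3 of 9 members called against 12.3% of 13830 genes, Bcl2a1b higher (4.69%) and Bmf and Pmaip1 lower (7.61%). The regorafenib libraries had 4 of 9 against 9.59% of 13841 genes, with Bcl2, Bcl2a1b and Bcl2a1d higher (4.41%) and Bmf lower (5.18%). Medians were 0.24 and 0.09, beside 0.01 and -0.03 over all genes. Bcl2a1b in M2 had 13 and 25 counts against 4 and 8 in M0, and with 1 CPM added it was no longer past 2-fold in either pair. All these comparisons share libraries with each other, so their values stand side by side and were not correlated.

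**Figure D4:**
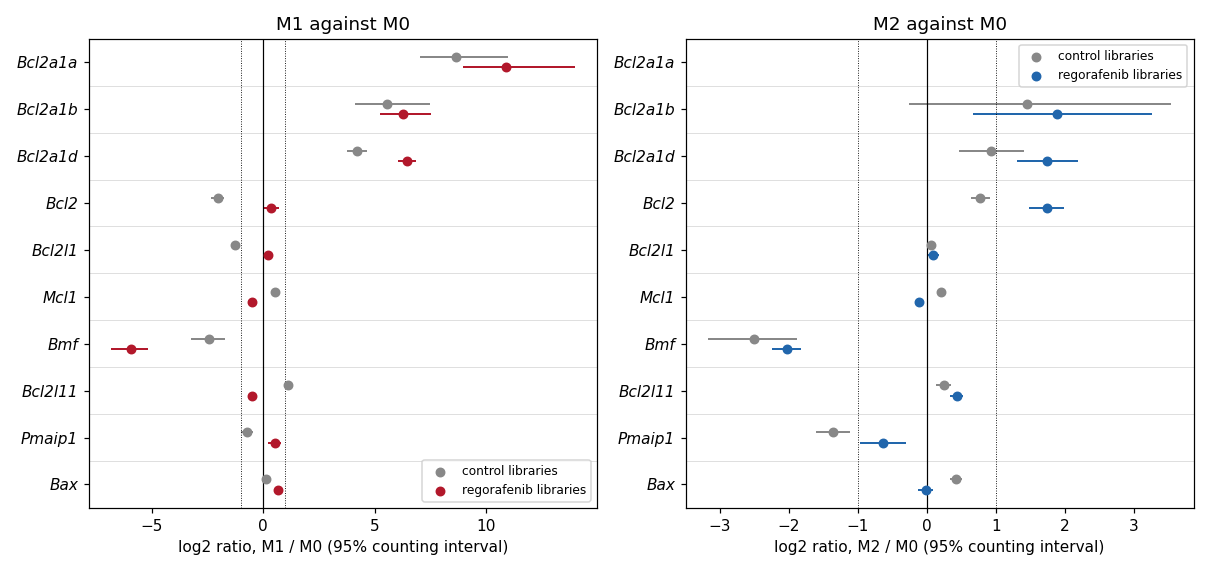
Log2 ratios of M1 to M0 (left) and M2 to M0 (right) in the control and the regorafenib libraries, with 95% counting intervals; dotted lines mark 2-fold, the axes of the panels differ in range, and Bcl2a1a is not drawn for M2, where it had 3 counts or fewer. Bcl2 and Bcl2l1 lie at -2.04 and -1.26 for M1 in the control libraries and at 0.36 and 0.21 in the regorafenib libraries (-0.05 and -0.21 when scaled by total counts), and Bcl2l11 moves from 1.13 to -0.49.

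A single fit over all 6 libraries, with state and treatment as additive terms (edgeR's quasi-likelihood test, 14110 genes, Benjamini-Hochberg adjustment), gave a test with 2 residual degrees of freedom. Its spread is the difference between states in their regorafenib response, and not that between replicates. The method also draws each gene's spread towards a trend over all genes, so the p-values rest in part on the spread of other genes. For M1 against M0, 4 of the 10 members had an adjusted p under 0.05, against 36.7% of all genes (18.5% higher, 18.2% lower). Bcl2a1a was higher by 9.85 on the log2 scale (SE 0.53, adjusted p = 0.000362), Bcl2a1b by 5.999 (SE 0.37, adjusted p = 0.000491) and Bcl2a1d by 5.43 (SE 0.59, adjusted p = 0.00195). Bmf was lower, with a log2 change of -4.05 (SE 0.95, adjusted p = 0.0220). The change of Bmf was -2.27 without M1 regorafenib and -5.95 without M1 control, and that of Bcl2a1d was 4.46 and 6.25. Leaving out M0 control or M0 regorafenib gave 10.85 and 8.61 for Bcl2a1a, 6.19 and 4.60 for Bcl2a1d and -4.60 and -3.45 for Bmf. No member passed for M2 against M0, where 0.198% of genes did (28), with 416 genes by DESeq2, though Bmf passed without M1 control (adjusted p = 0.0316 by edgeR) and without M1 regorafenib (0.0292). Of the members that missed the threshold for M1 against M0, Bcl2 passed without M0 regorafenib (log2 change -1.57, adjusted p = 0.0215 by edgeR) or M1 regorafenib (-1.76, 0.0253). Bcl2l1 (-1.20, 0.00669) and Bcl2l11 (1.24, 0.00650) passed without M1 regorafenib, and Bax (0.82, 0.0314) passed without M1 control. No gene passed for regorafenib over the 3 states (0%), although 1637 genes had an unadjusted p under 0.05 and DESeq2 called 297. Bmf had a regorafenib term of 2.57 (SE 0.74, adjusted p = 0.369 by edgeR and 0.0208 by DESeq2). Bcl2a1b stood at 1.43 (SE 0.28, adjusted p = 0.302 by edgeR and 0.0436 by DESeq2). With 1 library left out the term of Bmf ran from 1.83 without M2 regorafenib (1.84 without M2 control) to 3.39 without M1 control or M1 regorafenib. Without the M1 control library, in which case M1 regorafenib no longer bears on the term, Bmf (adjusted p = 0.0225) and Bcl2l1 (adjusted p = 0.0269) passed for regorafenib by edgeR. Without M1 regorafenib, Bmf (0.0198), Bcl2l1 (0.0252) and Bcl2 (0.0485) did.

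The wider death pathway was read through 62 genes in 9 lists, all but the members. With regorafenib, 5 of 55 with enough counts were past 2-fold higher and 9 lower in M0, 3 and 2 of 54 in M2, and 0 of 54 in M1, where the 4 members named earlier did pass. These shares of 25.5%, 9.26% and 0% stood beside 20.4%, 11.2% and 5.22% over all genes, so that those in M0 and M2 were near the background. Their median log2 ratios were 0.04, 0.01 and -0.07. Among other BH3-only genes in M0, Bbc3 (Puma) had 308 and 673 counts (1.03), while Bid, the link to the death receptors, had 1629 and 790 (-1.15) and Bik, a low gene, 42 and 14 (-1.69). The effector Bok had 43 and 11 (-2.07), and Bak1, the partner of Bax, had 5090 and 2811 (-0.96), short of 2-fold. Cycs, which encodes cytochrome c, had 2172 and 799 counts (-1.54) and was the only 1 of 10 apoptosome and caspase genes past 2-fold in M0.

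Among the inhibitors of apoptosis in M0, Birc3 was higher, with 934 and 2632 counts (1.39), and Birc5 (survivin, also a mitotic gene) lower, with 2537 and 615 (-2.15). In the list of death receptors and adaptors, Fas (204 and 479 counts, 1.13) was higher. Tnfrsf10b (327 and 96, -1.87), Ripk3 (1627 and 663, -1.40) and Mlkl (827 and 249, -1.83) were lower, besides Bid. Tnfrsf1b, a TNF receptor gene kept in that list, was higher too (9839 and 29975 counts). Relb, an NF-kappaB subunit, had 479 and 1202 counts (1.23), and E2f1 had 2715 and 1192 (-1.29). In M2 the same direction was past 2-fold for Birc3 (1.65), Tnfrsf1b (1.37), Relb (1.80), Bok (-1.03) and Tnfrsf10b (-1.30), which were all of its 5 calls.

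For M1 against M0 control, 15 of 55 pathway genes were past 2-fold higher and 5 lower, a share of 36.4% that was near the 37.1% of all genes, so the genes named next are single values and not a result about the lists. The survival gene Bcl2l2 (Bcl-w) had 2492 counts in M1 control against 1024 (1.53), the caspase-8 inhibitor Cflar 26967 against 4733 (2.76) and Birc3 11522 against 934 (3.87). Birc5 was lower, at 13 against 2537 counts (-7.36). Bnip3, a mitophagy gene induced by low oxygen, had 13438 counts against 622 (4.68), and its relative Bnip3l 7009 against 1933 (2.11). Fas (3.73) and Mlkl (2.75), which act in death receptor signalling, were higher too. So were the TNF receptor gene Tnfrsf1b (3.55), Diablo (1.47), Nfkb2 (2.91), Relb (2.02) and Ddit3 (1.77). E2f1 was at -1.75, and Bok had 43 counts in M0 and 0 in M1, at least 12.1-fold lower against a floor of 3 counts. In the regorafenib libraries 15 were higher and 4 lower (34.5%, beside 37.9% of all genes). Bak1 was higher there by 1.47 and Bbc3 was at -1.33, and neither was past 2-fold in the control libraries. M2 differed past 2-fold from M0 in 4 of 55 pathway genes in the control libraries, with Casp6 higher (1.89) and Bik (-2.83), Birc5 (-1.39) and Relb (-1.22) lower, and in 0 of 55 in the regorafenib libraries. The list of Mcl1 and Bim turnover genes (Huwe1, Usp9x, Fbxw7 and Btrc) had no call in any of the 7 comparisons.

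Genes with a like profile were found by the root mean square difference of centred log2 CPM over the 6 libraries, among the 11313 genes that reached 100 counts in at least 1 library. The 5 nearest to the summed Bcl2a1 counts were Adhfe1, Cd274, Ccser1, Cadps2 and Ier3, at 0.58 to 0.68. Cd274, which encodes PD-L1, had 768 and 1163 counts in M0, 43548 and 35597 in M1, with 1830 and 2340 in M2. Its M1 libraries were thus high as for Bcl2a1, but M1 regorafenib was not above M1 control in counts. Nearest to Bmf were Kcnj10, Frat2, Apoe, Selenop and Gpr162, at 0.40 to 0.86. Kcnj10, a potassium channel gene, had 293 and 2040 counts in M0, 36 and 32 in M1, with 59 and 261 in M2. Apoe had 1184 and 41460 in M0, 617 and 613 in M1, with 1018 and 7659 in M2. With 2 CPM added before the log, none of the 5 nearest to Bcl2a1 and 1 of the 5 nearest to Bmf (Kcnj10) stayed in the list.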

How the data were processed

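The authors deposited counts per gene for 6 macrophage libraries, 1 per condition. By their methods, stranded mRNA libraries were read over paired 100 bases, trimmed with cutadapt (2.4 in the submitters' processing notes), mapped to GRCm38 with STAR (2.7.2a) and counted with STAR on Gencode M19. The strand column taken is not given in the sources used here. Names and positions come from Gencode M21 on GRCm38, which matched 53229 of 54446 IDs with their version and 1180 without.

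Counts were scaled by TMM (edgeR 4.0.16, R 4.3.3; factors 0.820 to 1.12). Log2 ratios replace a count of 0 by 0.5, with conditional exact binomial 95% intervals. A gene at 3 counts or fewer in both libraries got no ratio. The additive fit used edgeR's filterByExpr, with DESeq2 1.42.0 as the alternative. The study's own test for single libraries, NOISeq, was not run. The text names all 10 members, the 5 genes nearest in profile to Bcl2a1 and to Bmf, and of each pathway list at most 4 genes per comparison that were past 2-fold with 100 counts or more, largest first. Bok, Bik, Bak1, Foxo1, Foxo3 and, in M0, Fas were named after their values were seen. Some genes that this rule covers are not reported here. Members, lists and tests were chosen with earlier results of these data known. The alternatives were total counts, DESeq2 size factors, no count minimum, a 1.5-fold threshold, 1 CPM added, the Bcl2a1 copies summed and, in the additive fit, each library left out. Scripts were tested on simulated data. Columns of other samples numbered 0. Promoters are RefSeq windows for 9 of the 10 members, and Python 3.11.15, scipy 1.17.1 and Biopython 1.88 were used.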

Additional observations from a re-analysis of the deposited data

Results flagged for a closer look

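Bcl2l1, Mcl1, Bcl2l11 and Bax had regorafenib ratios of opposite sign in M1 and in the other states, with counting intervals that excluded 0 on both sides under TMM, total counts and DESeq2 size factors. With 1 library per condition the difference between states was not tested. The log2 ratio in M1 minus that in M0 was 1.47 for Bcl2l1, -1.04 for Mcl1, -1.62 for Bcl2l11 and 0.54 for Bax. The ratio in M2 minus that in M1 was -1.45 for Bcl2l1, 0.72 for Mcl1, 1.81 for Bcl2l11 and -0.98 for Bax.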

How the results depend on the processing

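No member's ratio past 2-fold changed direction under total counts, DESeq2 size factors or 1 CPM added, although 21 of 66 ratios moved to outside their counting interval with total counts, 12 (all nearer to 0) with 1 CPM added and 3 with DESeq2 size factors. The number of members called moved with a 1.5-fold threshold to 7 for regorafenib in M2 and 5 for M2 against M0 control, and with the Bcl2a1 copies summed to 2 for regorafenib in M1 and 2 for M1 against M0 with regorafenib. Summing also gave 5 in place of 7 for M1 against M0 control, 3 in place of 4 for regorafenib in M2, 2 in place of 3 for M2 against M0 control and 3 in place of 4 for M2 against M0 with regorafenib. With unshared words as length, Mcl1 held 53.8% and 18.4% of the survival genes' level in M1 control and M1 regorafenib and the copies 42.8% and 79.4%. With the copies left out, Mcl1 held 93.9% and 89.3%. Of the genes with the nearest profile, 0 of 5 stayed for Bcl2a1 and 1 of 5 for Bmf with 2 CPM added. In the additive fit the regorafenib term had 297 calls by DESeq2, 333 with no expression filter and 0 to 814 with a library left out (726 without M1 control, 814 without M1 regorafenib); M2 against M0 had 416, 408 and 77 to 294. M1 against M0 had 4118 to 5083 with a library left out, and its 4 called members passed in each of those fits. The cause of these shifts was not tested. State was a term of the additive fit, which so paired the control and regorafenib library of each state, and without it regorafenib had 0 calls among 13365 genes. No block for replicate numbers could be fitted, since each condition had 1 library. The low counts of Bcl2a1a, Bcl2a1b and Bmf limit what could be seen in M0, M2 and M1.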
